A study of Mus musculus with 12 samples.

Results

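The receptors of the *Trem* locus and their adaptors were followed in primary mouse microglia. They are 8 genes chosen by symbol from a table of 48623 genes: the receptors *Trem2*, *Trem1*, *Trem3*, *Treml1*, *Treml2* and *Treml4*, which lie in 1 cluster on chromosome 17, and the adaptors *Tyrobp* and *Hcst*, which are neighbours on chromosome 7. Each of the 8 symbols matched 1 identifier. Microglia were grown from newborn cortex and hippocampus of wild type mice (WT) or of mice carrying the *Trem2* R47H allele in both copies of the endogenous gene (R47H KI), all on a C57BL/6J background. There were 3 WT cultures, T13, T33 and T43, and 3 R47H KI cultures, T15, T22 and T32. Each culture gave 1 untreated library and 1 library taken after 48 h with IL-4 at 20 ng/ml. IL-4 (interleukin-4) is a cytokine that drives macrophages to an anti-inflammatory state. The 12 libraries thus form 4 groups of 3. The study calls the WT animals of the sequencing littermates of the KI mice and counts mice as replicates. Its methods describe WT preparations in general as pools of pups and pups of the KI strain as cultured apart and genotyped later, and which of these the WT cultures here were is not given in the sources used here. As a further limit of the model, this mouse line is known to splice *Trem2* abnormally, which a value per gene cannot show.

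TREM2 is a cell surface receptor for lipids and lipoproteins with almost no signalling tail of its own. It signals through TYROBP, also called DAP12, a small transmembrane adaptor whose phosphorylated tail recruits the kinase SYK, whereas HCST, also called DAP10, recruits phosphoinositide 3-kinase. In the brain *Trem2* and *Tyrobp* are characteristic genes of microglia, and the other *Trem* genes are known mainly from neutrophils and other myeloid cells or, for *Treml1*, from platelets.

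The edited codon is shown because it defines the R47H KI group and places it in the gene measured. In the GRCm38 annotation, *Trem2* (ENSMUSG00000023992) spans chr17:48346401-48354147 on the plus strand. Codon 47, counted from the start codon as 1, lies at chr17:48348555-48348557, within the coding part of exon 2 of 5 of transcript Trem2-201. The stretch chr17:48348525-48348587 of the reference transcript reads as follows, 5′ to 3′, with the arginine codon of position 47 in capitals.
*Trem2* codon 47: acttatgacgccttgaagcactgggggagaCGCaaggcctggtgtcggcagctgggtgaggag
The label R47H names the exchange of this arginine for histidine. The table holds values per gene and not per allele, so the libraries were not checked for the exchange itself.

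Values are TPM, transcript abundances corrected for transcript length and brought to a sum of 1000000 in each library, so that levels can be compared between genes. They keep no count of reads. The methods give a nominal depth for the sequencing, but the reads of each library and the counts behind each value are not known from the table. Tests were run on log2(TPM + 1) over the 11204 genes whose mean exceeded 1.5 on that scale, with Benjamini-Hochberg adjustment over all of them. In limma's F-test, 1.65% of these genes passed an adjusted p of 0.05 for genotype and 0.893% for IL-4, that is 185 and 100 genes, against 77 and 240 with culture as a replicate block. For the genotype-by-IL-4 interaction limma called 0 genes, that is 0%, with 357 at an unadjusted p under 0.05, and 4 genes with no expression limit, none of the 8 among them. The median genotype difference over all genes tested was 0.13 (log2). Quantile normalization moved this median to -0.08, and median-ratio scaling moved it to 0.02.

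The libraries had the markers of microglia, and 1 KI culture stood apart. All 18 microglial markers were past the expression limit, and their summed level ran from 23030 to 24720 TPM in WT and from 10600 to 20290 TPM in KI without IL-4, and from 28260 to 32990 TPM in IL-4-treated WT and 18750 to 24690 TPM in IL-4-treated KI. Of these markers, 17 had a lower and 1 a higher mean in KI, with a median difference of -0.65 (log2), and 5 passed the genotype test, against 3 after quantile normalization and 1 without culture T15. Culture T15 had summed levels of 8 astrocyte markers of 4599 TPM untreated and 3509 TPM after IL-4, against 157 to 661 TPM in the other 10 libraries. All 7 astrocyte markers tested had a higher mean in KI, by a median of 1.63 (log2), with 0 called. Without T15 the median was 0.44, again with 0 lower in KI and 0 called. Summed markers of mural cells and fibroblasts did not overlap between the genotypes, with 141 to 552 TPM in WT and 701 to 1313 TPM in KI. How often genes separate so was not counted. Of the 4 tested, 2, *Acta2* and *Tagln*, were called higher, as were 145 of the 11204 genes tested. Neutrophil markers summed to at most 108 TPM, with 5 of 10 (*S100a9*, *Ly6g*, *Elane*, *Ltf* and *Ngp*) at 0 in all libraries, and platelet markers to between 39 and 351 TPM. T and NK cell and B cell markers summed to at most 0.682 and 1.89 TPM, with the defining *Cd2*, *Nkg7*, *Ncr1* and *Cd79a* at 0 throughout. Neuronal markers summed to at most 53.2 TPM, with both tested higher in KI and 0 called. Those of the oligodendrocyte lineage summed to 67.9 to 133 TPM in untreated WT and 143 to 542 TPM in untreated KI. After IL-4 they overlapped, at 79.7 to 149 TPM in WT and 140 to 377 TPM in KI. Of 6 tested, 5 were higher in KI, with a median of 1.15 (log2), or 0.54 without T15. Of these, 1 was called higher, and 0 without T15. In such bulk RNA, fewer microglia in a culture and less RNA of a gene per microglial cell cannot be told apart. By cell staining, the paper reports that the share of microglia did not differ substantially between its WT and KI cultures, untreated or with IL-4. Whether the sequenced cultures were among those stained is not given in the sources used here.

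Of the 8 genes, 3 were past the expression limit, *Tyrobp*, *Trem2* and *Hcst*, and 5 were not. *Tyrobp* was above *Trem2*, and *Trem2* above *Hcst*, in each of the 12 libraries. *Tyrobp* was among the most abundant transcripts, ranking between 9 and 16 of all genes in WT libraries and between 12 and 35 in KI libraries. *Trem2* ranked between 42 and 89 in WT and between 113 and 385 in KI, so the 2 sets of ranks did not overlap. *Hcst* ranked far lower, between 1298 and 4593 over all libraries.

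*Trem2*, the edited gene, was lower in R47H KI microglia in both conditions. Untreated WT cultures T13, T33 and T43 had 1328, 1886 and 1538 TPM, and untreated KI cultures T15, T22 and T32 had 325, 770 and 602 TPM. After IL-4 the WT cultures had 1190, 1550 and 1312 TPM and the KI cultures 428, 598 and 634 TPM. Every KI library lay below every WT library in either condition, and T15 was the lowest of the KI cultures in both. Such separation, with KI below WT, was found for 4.55% of the genes tested in untreated and 5.79% in IL-4-treated libraries. The KI mean was 35.7% of the WT mean in untreated cultures (566 ± 225 against 1584 ± 282 TPM, SD, n = 3 each) and 40.9% after IL-4 (553 ± 110 against 1351 ± 183 TPM, SD, n = 3 each).

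**Figure D1:**
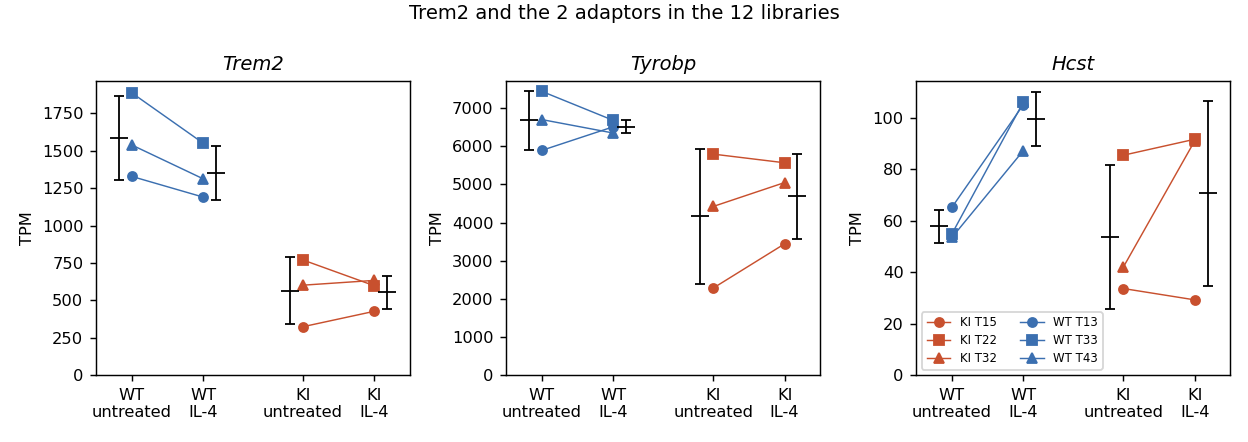
TPM of *Trem2*, *Tyrobp* and *Hcst* (vertical axes, each from 0) in untreated and IL-4-treated cultures of WT (blue) and R47H KI (red). Lines join the 2 libraries of a culture, and black bars are the group mean ± SD (n = 3); for *Trem2* the highest KI point is 770 TPM and the lowest WT point 1190 TPM.

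The genotype difference of *Trem2*, averaged over the conditions, was -1.43 ± 0.19 (log2, SE; limma F-test, adjusted p = 0.00763), and *Trem2* was the only 1 of the 8 genes past the genotype threshold. It was also 1 of the 0.357% of tested genes called lower in KI. The untreated cultures alone gave -1.56 ± 0.27 (limma, adjusted p = 0.0182), where 0.205% of genes were called lower. This call was lost without T33 (limma adjusted p = 0.137), T43 (0.125) or T32 (0.0624). After IL-4 alone the difference was -1.30 ± 0.27 and did not pass (limma, adjusted p = 0.141), in a contrast that called 0.00893% of genes lower. The difference between the conditions, 0.26 ± 0.38 (log2, SE; limma interaction, adjusted p = 1), did not pass either. The genotype call was lost without WT culture T33 (-1.31, limma adjusted p = 0.106) or T43 (-1.44, limma adjusted p = 0.0766), and it held without T15 (-1.16, limma adjusted p = 0.00528), the culture with the astrocyte markers. It was also lost with no expression limit (limma adjusted p = 0.126) and with no variance trend (limma adjusted p = 0.06). The limma fit took the 2 libraries of a culture as independent. Over culture means, exact 2-sided permutation gave p = 0.1 for *Trem2* and likewise for *Tyrobp*, the smallest that 3 cultures against 3 allow.

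No IL-4 difference of *Trem2* passed the test. The change within a culture was -0.16, -0.28 and -0.23 (log2) in T13, T33 and T43, and 0.40, -0.36 and 0.07 in T15, T22 and T32. All 3 WT cultures were thus lower after IL-4, and the KI cultures went both ways. The averaged difference was -0.09 ± 0.19 (log2, SE; limma F-test, adjusted p = 1), with -0.22 ± 0.27 in WT and 0.04 ± 0.27 in KI. In these contrasts within WT and within KI, 0.571% and 0.402% of genes were called, none of the 8 among them. The same held for the F-test for IL-4 and for the interaction, which called 0 of the 3 members tested in limma, with 0 at an unadjusted p under 0.05.

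*Tyrobp*, the adaptor of TREM2, was also lower in the KI libraries, by less, and did not pass the genotype test. Untreated WT cultures T13, T33 and T43 had 5890, 7436 and 6697 TPM, and untreated KI cultures T15, T22 and T32 had 2285, 5793 and 4422 TPM. After IL-4 the values were 6507, 6677 and 6345 TPM in WT and 3444, 5566 and 5048 TPM in KI. The groups did not overlap, as for the 4.55% of genes in untreated and 5.79% in IL-4-treated libraries given above, but the highest untreated KI library, T22, came close to the lowest WT library, T13. The KI mean was 62.4% of the WT mean in untreated and 72% in IL-4-treated cultures. The spread between cultures was wider in KI, with an SD of 1768 TPM untreated against 773 TPM in WT (n = 3 each), and T15 was the lowest in both conditions.

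The averaged genotype difference of *Tyrobp* was -0.64 ± 0.20 (log2, SE; limma F-test, adjusted p = 0.211). Without T15 it was -0.34 (limma adjusted p = 0.339), and without T22 it was -0.85 (limma adjusted p = 0.0708). The microglial markers moved with this result, being lower in KI by a median of 0.65 (log2), or of 0.49 without T15. Their part in the result was not tested. IL-4 gave a difference of 0.11 ± 0.20 (log2, SE; limma F-test, adjusted p = 1), with 3 cultures higher and 3 lower, and after quantile normalization its sign turned.

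*Trem2* and *Tyrobp* were then set against the microglial markers of the same library, a comparison chosen after their values were seen. The markers include *C1qa*, *Cd68*, *Csf1r* and *Spi1*, which the paper reports as lower after *Trem2* siRNA. It also reports *C1qa* and *Cd68* as higher after IL-4. The marker mean is thus not a measure of microglial content alone. Relative to the mean log2 level of the 18 markers, *Trem2* was lower in KI by 0.87 on the log2 scale (KI minus WT -0.87, and -0.70 without T15). *Tyrobp* relative to the markers gave -0.08, and 0.12 without T15, which turned the sign. Exact 2-sided permutation gave p = 0.1 for *Trem2*, the smallest that 3 cultures against 3 allow, and p = 0.7 for *Tyrobp* (0.376 and 0.8 when adjusted over 6 such tests on *Trem2*, *Tyrobp* and *Hcst*). The part of the markers in the 2 genotype differences was not tested.

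**Figure D2:**
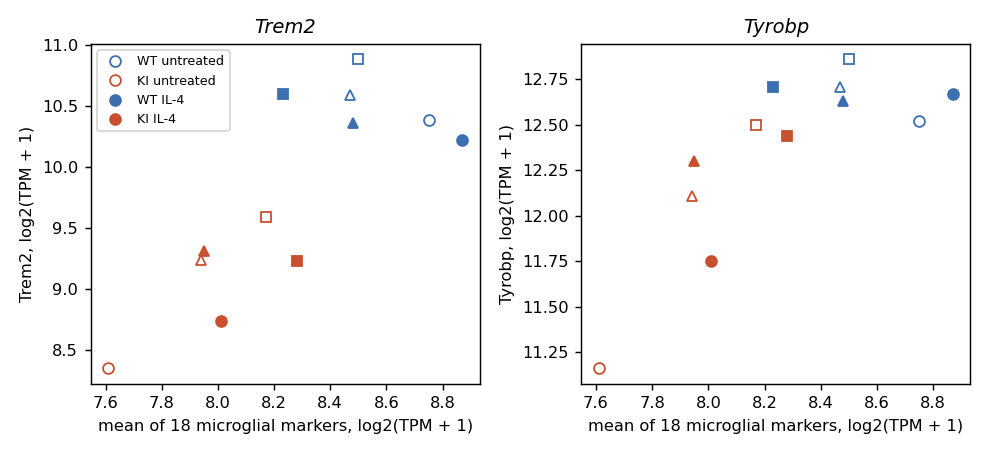
*Trem2* (left) and *Tyrobp* (right) as log2(TPM + 1) against the mean log2(TPM + 1) of 18 microglial markers, 1 point per library (WT blue, KI red, open untreated, filled IL-4). The lowest point in both panels is untreated T15, with a marker mean of 7.61. The marker means barely overlap between the genotypes, at 8.23 to 8.87 in WT and 7.61 to 8.28 in KI, where 1 WT library (IL-4-treated T33) lies below the highest KI library (IL-4-treated T22).

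The ratio of receptor to adaptor in a library is not moved by a single scaling factor for that library. *Trem2* amounted to 22.5%, 25.4% and 23% of *Tyrobp* TPM in untreated T13, T33 and T43, and to 14.2%, 13.3% and 13.6% in untreated T15, T22 and T32. After IL-4 it was 18.3%, 23.2% and 20.7% in WT and 12.4%, 10.7% and 12.6% in KI. No KI value reached a WT value. Culture T15, which was low in both genes, had a ratio like those of T22 and T32.

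Over culture means the log2 ratio was -2.18 ± 0.13 in WT and -2.97 ± 0.08 in KI (SD, n = 3 each), a difference of -0.79, with an exact 2-sided permutation p of 0.1, the smallest that 3 cultures against 3 allow. Leaving out each culture in turn gave -0.85 to -0.72. The ratio was lower after IL-4 in 6 of 6 cultures, with a mean difference of -0.20 (exact sign-flip permutation p = 0.0312, 2-sided, the smallest that 6 cultures allow). Adjusted over the 6 exact tests made on this ratio and on that of *Hcst* to *Tyrobp*, p was 0.187, so this did not pass. The size of the IL-4 difference was alike in the genotypes, -0.01 apart (log2; exact permutation p = 0.9), although 3 cultures a group cannot show that it is the same.

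**Figure D3:**
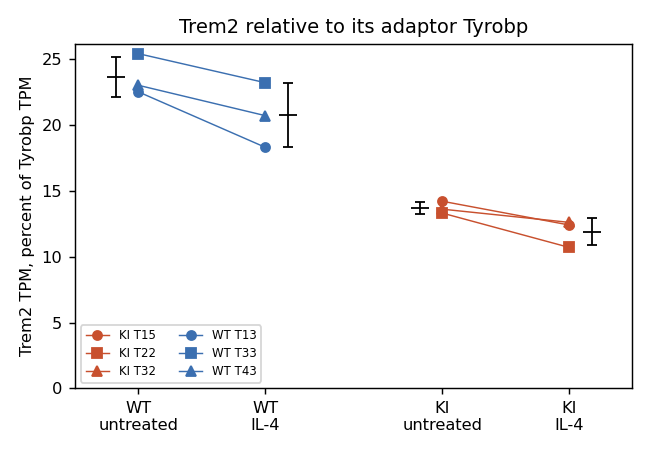
*Trem2* TPM as a percent of *Tyrobp* TPM (vertical axis from 0) in untreated and IL-4-treated cultures, with lines joining the 2 libraries of a culture and black bars for the group mean ± SD (n = 3). WT lies between 18.3% and 25.4% and KI between 10.7% and 14.2%, and all 6 lines slope down.

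*Hcst* is the second adaptor, which couples receptors to phosphoinositide 3-kinase, and it lies tail to tail with *Tyrobp*. *Tyrobp* (ENSMUSG00000030579) is at chr7:30413760-30417585 on the plus strand and *Hcst* (ENSMUSG00000064109) at chr7:30417712-30419854 on the minus strand in GRCm38, with 126 bases between their ends. Despite this neighbourhood their levels differed widely, with 53.5 to 65.2 TPM of *Hcst* in untreated WT. The kit and the quantification are not stated to use strand.

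*Hcst* was higher after IL-4 in each WT culture, without passing the test. T13, T33 and T43 went from 65.2, 54.9 and 53.5 TPM to 105, 106 and 87.2 TPM, and the 2 WT groups did not overlap. Among all genes tested, 10.8% were likewise higher in every IL-4-treated than in every untreated WT library. In KI, T15, T22 and T32 went from 33.7, 85.4 and 42 TPM to 29.3, 91.6 and 91 TPM, so that T32 was clearly higher after IL-4, while T22 was high and T15 low in both conditions. The IL-4 difference was 0.55 ± 0.28 (log2, SE; limma F-test, adjusted p = 0.886), with 5 cultures higher and 1 lower. It was 0.77 ± 0.40 in WT and 0.33 ± 0.40 in KI, and the difference of these did not pass (-0.44 ± 0.56, limma interaction, adjusted p = 1). The genotype difference was -0.43 ± 0.28 (limma F-test, adjusted p = 0.625), with -0.03 without T15 (limma adjusted p = 0.964) and -0.76 without T22 (limma adjusted p = 0.222).

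The other 5 receptors of the locus were at or near 0. *Trem3* (ENSMUSG00000041754, chr17:48247777-48258841) was listed at 0 in all 12 libraries. *Trem1* (ENSMUSG00000042265, chr17:48232768-48246924), an activating receptor that amplifies inflammation, was above 0 in 2 libraries, with 0.883 TPM in IL-4-treated T13 and 0.0577 TPM in IL-4-treated T15. *Treml1* (ENSMUSG00000023993, chr17:48359916-48367176), the receptor of platelet granules and the gene next downstream of *Trem2*, was above 0 in 3 libraries, all of them WT, with 0.065 TPM in untreated T13, 1.94 TPM in untreated T43 and 1.03 TPM in IL-4-treated T33. No culture had *Treml1* in both of its libraries.

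*Treml4* (ENSMUSG00000051682, chr17:48264295-48275360), a receptor known from spleen macrophages and dendritic cells, was above 0 in 3 libraries. It had 1.58 TPM in untreated and 0.79 TPM in IL-4-treated T13, the only culture with values in both conditions, and 2.37 TPM in IL-4-treated T32. *Treml2* (ENSMUSG00000071068, chr17:48299498-48312533) was above 0 in 8 libraries and at 0 in 4. In untreated libraries its highest value was 0.0706 TPM (T13), and after IL-4 it had 0.0313, 0.686 and 0.376 TPM in T13, T33 and T43 and 1.68, 0 and 0.0112 TPM in T15, T22 and T32. *Treml2* was thus higher after IL-4 in 4 cultures and lower in 1.

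None of these genes passed a test. The culture means of *Treml1*, averaged over the conditions, were above 0 in all 3 WT cultures and at 0 in all 3 KI cultures. In each condition alone, some WT libraries were at 0 like the KI libraries. How often genes separate so by culture mean was not counted. In 8 exact 2-sided permutation tests on the 4 genes with any value, the smallest p were 0.1 for *Treml1* by genotype, the lowest the design allows, and 0.188 for *Treml2* by IL-4 (both 0.752 when adjusted over the 8 tests). Fitted without the expression limit, 0 of the 7 genes above 0 in any library were called by limma, with 1 for genotype and 0 for IL-4 at an unadjusted p under 0.05, against calls for 0.0538% of 29745 genes for genotype and 0.205% for IL-4. *Trem2* was among those 7 and was not called in that fit. Since a 0 in a table without counts can be a failed estimate, these genes are described only as listed at 0 there.

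**Figure D4:**
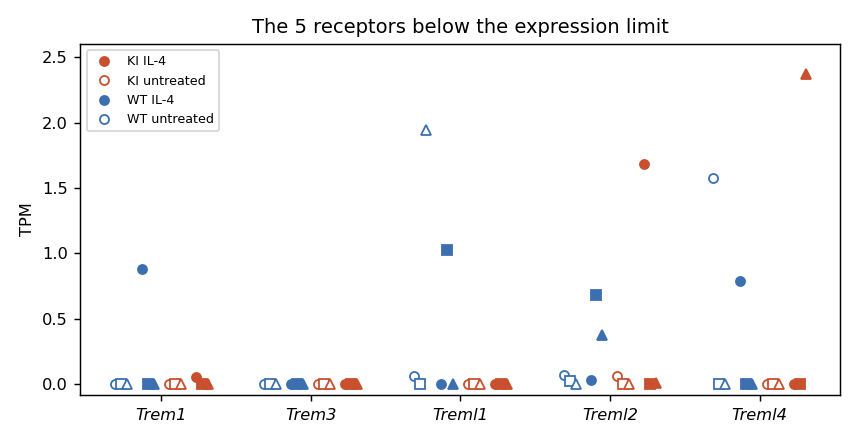
TPM of the 5 receptors below the expression limit (linear vertical axis), 1 point per library (WT blue, KI red, open untreated, filled IL-4, with a symbol shape for each culture of a genotype). Most points are at 0, *Trem3* has none above it, and the highest is *Treml4* at 2.37 TPM in IL-4-treated T32.

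Promoter sequence was at hand for 5 of the 8 genes in RefSeq (build GRCm38.p6). That of *Trem2* is shown, as the gene whose level differed, for the 250 bases before its start, chr17:48346151-48346400 on the plus strand, with the core letters GAGGAA bound by the myeloid factor PU.1 in capitals, here as they read on the opposite strand.
*Trem2* promoter: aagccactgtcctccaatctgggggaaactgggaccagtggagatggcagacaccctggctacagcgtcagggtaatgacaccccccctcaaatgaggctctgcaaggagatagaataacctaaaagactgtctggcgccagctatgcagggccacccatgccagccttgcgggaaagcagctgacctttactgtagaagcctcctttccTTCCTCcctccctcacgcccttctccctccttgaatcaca
GAGGAA was found on either strand 1 time before *Trem2*, 1 time before *Trem1*, 2 times before *Treml4*, and not before *Treml1* or *Hcst*, and 23.3% of all 32851 promoter windows of this length hold it. The letters thus occurred before *Trem2* and before 2 receptors at or near 0. TTCNNNNGAA, the letters bound by STAT6, the factor that IL-4 activates, were in none of the 5 windows and in 5.85% of all. The 2 motifs were searched on both strands and did not overlap in these windows.

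The locus around the 6 receptors was otherwise thinly expressed. Within 300000 bases of the receptors, which span chr17:48232768-48367176, GRCm38 has 20 further genes, of which 13 were in the table and 3 were past the expression limit. *Oard1*, an enzyme that removes ADP-ribose from proteins, had 21.3 ± 6.51 TPM in WT and 24 ± 6.80 TPM in KI cultures without IL-4 (SD, n = 3 each). *Nfya*, a subunit of the CCAAT-binding factor NF-Y, had 4.55 ± 2.32 and 3.67 ± 1.37 TPM in the same groups. After IL-4 *Nfya* had 7.06 ± 0.532 TPM in WT and 2.81 ± 2.24 TPM in KI, with no overlap, as for 5.79% of the genes tested, and this difference of -1.24 ± 0.54 (log2, SE) did not pass (limma adjusted p = 0.457). Averaged over the conditions, neither gene passed for genotype, with 0.16 ± 0.21 for *Oard1* and -0.72 ± 0.38 for *Nfya* (log2, SE; limma F-test, adjusted p = 0.915 and 0.427).

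*B430306N03Rik*, which lies between *Treml2* and *Trem2* at chr17:48316141-48327024, was higher after IL-4 without passing the test. It went from 1.72 ± 1.63 to 5.26 ± 1.35 TPM in WT and from 1.71 ± 1.33 to 6.76 ± 0.543 TPM in KI (SD, n = 3 each), and in neither genotype did the 2 groups overlap, a separation found for 10.8% of genes in WT and 5.47% in KI. The IL-4 difference was 1.52 ± 0.41 (log2, SE; limma F-test, adjusted p = 0.317), and the genotype difference was 0.17 ± 0.41 (limma adjusted p = 0.955). Thus 0 of the 3 expressed neighbours were called for genotype by limma, with 0 at an unadjusted p under 0.05 in the F-test. Whether their genotype differences differ from that of *Trem2* was not tested.

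Among 18 other receptors that use DAP12 or DAP10, 5 were past the expression limit, and 1 passed the IL-4 test, which called 0.893% of all genes. *Cd300lb*, an activating receptor of myeloid cells that pairs with DAP12, rose after IL-4 from 77.1 ± 10.9 to 193 ± 18.9 TPM in WT and from 67.2 ± 2.69 to 167 ± 60.8 TPM in KI (SD, n = 3 each), by 1.28 ± 0.16 (log2, SE; limma F-test, adjusted p = 0.00259). Its relative *Cd300ld* had 1.34 ± 0.32 (limma adjusted p = 0.163). In limma 0 of the 5 passed for genotype, with 1 at an unadjusted p under 0.05, and their median genotype difference was -0.23 (log2). For genotype *Cd300ld* had -0.77 ± 0.32 (limma adjusted p = 0.307) and *Cd300lb* -0.23 ± 0.16 (limma adjusted p = 0.715). *Clec5a*, another DAP12-coupled receptor, had -0.58 ± 0.30 (limma adjusted p = 0.543), *Sirpb1c* 0.24 ± 0.61 (limma adjusted p = 0.68) and *Cd200r4* 0.28 (limma adjusted p = 0.824).

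Of 43 kinases, phosphatases and adaptors that act after DAP12 and DAP10, 40 were tested, and 2 fell and 0 rose with genotype, where 0.357% of all genes tested were called lower and 1.65% in either direction. *Pik3ap1*, an adaptor that links such receptors to phosphoinositide 3-kinase, had 138, 180 and 130 TPM in T13, T33 and T43 and 38.5, 81.4 and 63.8 TPM in T15, T22 and T32 before IL-4, with no overlap, as for 4.55% of the genes tested. Its difference was -1.08 ± 0.18 (log2, SE; limma F-test, adjusted p = 0.0203), and the call was lost without T33 (limma adjusted p = 0.165), T43 (0.102) or T32 (0.0536). *Ptpn6*, the phosphatase SHP-1 that dampens such signals, fell by 0.81 on the log2 scale (KI minus WT -0.81 ± 0.16, limma F-test, adjusted p = 0.0407), and its call was lost without any culture but T15, with adjusted p up to 0.214, with culture as a replicate block (limma adjusted p = 0.0819) and with a pseudocount of 0.1 (0.0556). *Lat2*, a membrane scaffold, had -1.09 ± 0.24 and missed the threshold (limma adjusted p = 0.0664). The calls of *Pik3ap1* and *Ptpn6* were also lost with no expression limit (limma adjusted p = 0.171 and 0.237) and with no variance trend (0.0806 and 0.139). *Syk* itself, the kinase recruited by DAP12, had 0.09 (log2; limma adjusted p = 0.539).

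The median genotype difference of these 40 genes was -0.20, against 0.13 over all genes tested, and 26 of them had a lower mean in KI. Without T15 the median was -0.08, against 0.10 over all genes, with 22 lower. Quantile normalization gave -0.42, against -0.08, with 35 lower. The microglial markers, with a median of -0.65, moved the same way. Their part in this was not tested.

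With IL-4, 2 of the 40 passed, in opposite directions, against 0.893% of all genes tested. *Fyn*, a Src-family kinase, rose by 1.77 ± 0.22 (log2, SE; limma F-test, adjusted p = 0.00259), from 28.5 ± 2.83 to 121 ± 10.6 TPM in WT and from 29.5 ± 13.7 to 79.7 ± 22.6 TPM in KI (SD, n = 3 each). This call was lost with no expression limit (limma adjusted p = 0.0639). *Lyn*, its relative, fell by 0.61 on the log2 scale (IL-4 minus untreated -0.61 ± 0.11, limma F-test, adjusted p = 0.0391), and its call was lost without any 1 of the 6 cultures (limma adjusted p = 0.0634 to 0.272), under both other scalings (0.0534 and 0.057) and with no variance trend (0.218). *Ctnnb1*, the beta-catenin that TREM2 signalling is known to stabilise, had 0.54 ± 0.11 and missed the threshold (limma adjusted p = 0.0569).

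**Figure D5:**
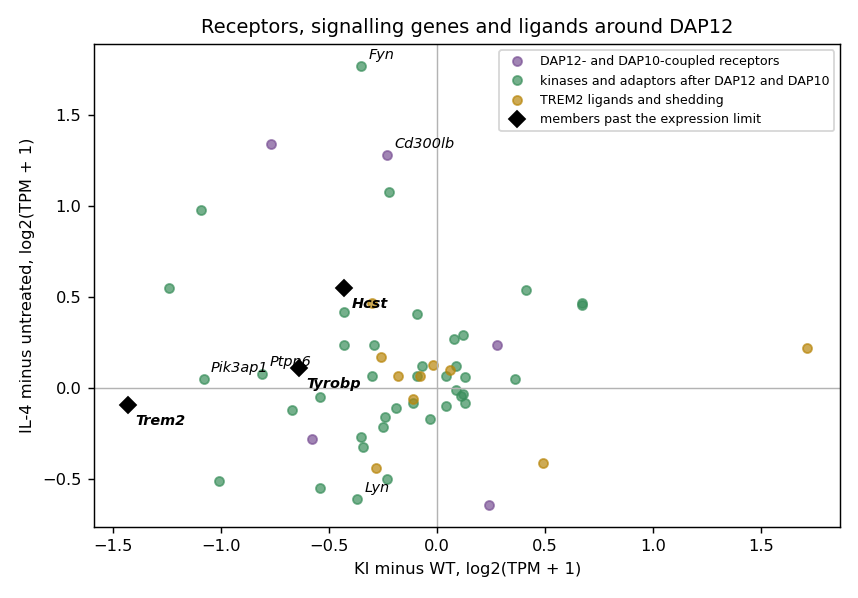
Genotype difference (KI minus WT, horizontal axis) against IL-4 difference (IL-4 minus untreated, vertical axis), both in log2(TPM + 1), for the tested genes of 3 lists (circles) and the 3 expressed members (diamonds). *Trem2* is farthest to the left at -1.43 and near 0 on the IL-4 axis, and the named circles are the genes past a threshold, *Fyn* highest at 1.77.

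Of 12 genes for TREM2 ligands and for the proteases that shed the receptor, 10 were tested, and limma called 0 for genotype or IL-4, with 1 and 0 at an unadjusted p under 0.05. *Apoe*, a lipoprotein ligand, was far more abundant than the receptor, with 54730 ± 4283 TPM in WT and 44250 ± 10400 TPM in KI before IL-4 (SD, n = 3 each). Its IL-4 difference was -0.44 ± 0.19 (log2, SE; limma F-test, adjusted p = 0.798). *Clu*, a ligand also made by astrocytes, had 1.71 ± 0.56 for genotype (limma adjusted p = 0.239) with an SD of 497 TPM in untreated KI, the group that holds T15. The sheddases *Adam10* and *Adam17* had 0.47 ± 0.19 and 0.17 ± 0.16 for IL-4 (limma adjusted p = 0.751 and 0.963), and *Adam17* had -0.26 ± 0.16 for genotype (limma adjusted p = 0.532). Of the gamma-secretase subunits, *Psen2* had -0.18 ± 0.17 and *Aph1b* 0.49 ± 0.39 for genotype (limma adjusted p = 0.653 and 0.663).

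As a description over the 12 libraries, which share the genotype and cell-composition differences given above, the genes whose log2 levels were most like those of *Trem2* were *Fxyd5* (Pearson's r = 0.948), *Tm6sf1* (0.939), *Pik3ap1* (0.939), *Msr1* (0.937) and *Nckap1l* (0.936). Those most like *Tyrobp* were *Cd53* (r = 0.976), *Fxyd5* (0.972), *C3ar1* (0.952), *Nckap1l* (0.95) and *Sirpa* (0.947). Both lists thus hold *Fxyd5* and *Nckap1l*. *Trem2* and *Tyrobp* had r = 0.901 with each other, which placed *Tyrobp* at rank 14 for *Trem2* and *Trem2* at rank 24 for *Tyrobp* among the genes tested. *Hcst* stood apart, at rank 910 for *Trem2* (r = 0.507) and rank 417 for *Tyrobp* (r = 0.702).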

How the data were processed

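Poly(A)-primed RNA-seq libraries of 12 samples were analysed. The authors deposited TPM per gene, obtained with tximport from Salmon estimates on the Ensembl GRCm38 annotation after adaptor trimming in Trim Galore; Salmon corrected for GC content and fragment position. Tool versions are not given in the sources used here. TPM keep no read counts, so the authors' DESeq2 test could not be run and limma 3.58.1 (R 4.3.3) took its place: lmFit and eBayes with a trend, on log2(TPM + 1), for genes with a mean above 1.5, with genotype, IL-4 and interaction as coefficients and F-tests of 2 coefficients.

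The members and lists were chosen with earlier results of these data known. Named were the 8 members, up to 4 genes of each list with the smallest p for genotype and for IL-4, expressed neighbours within 300000 bases, and the 5 genes most like *Trem2* and *Tyrobp*; *Syk* was added after its value was seen, and some genes of the lists are not reported here. Cultures pair libraries by the number in the sample names (deviations from group means correlated at 0.0792 to 0.378). The main limma fit had no culture block and took the libraries as independent, so its p-values measure the spread between libraries. The replicate block and the exact tests used the cultures, except where a test is said to be without the pairing. Exact permutations were made in Python 3.11.15. Alternatives were other pseudocounts, expression limits and scalings, no variance trend, a 1-coefficient test, a replicate block and leaving out each culture.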

Additional observations from a re-analysis of the deposited data

How the results depend on the processing

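The genotype difference of *Trem2* kept its sign in 14 of 14 alternatives and its call in 10. With no expression limit it was -1.43 (adjusted p = 0.126), with no variance trend -1.43 (adjusted p = 0.06), and over cultures left out in turn -1.59 to -1.16. The count of members past the genotype threshold went from 1 to 0 under those 2 settings and ranged from 0 to 1 with cultures left out, and the count of their contrasts within a condition or genotype likewise went from 1 to 0, or from 0 to 1. *Tyrobp* stayed below the threshold in 14 of 14 alternatives (-0.85 to -0.34 with cultures left out). The count of pathway and neighbour calls, 5 as reported, was 2 with no expression limit, 2 with no variance trend, 8 with the replicate block, 9 with the 1-coefficient test, and 2 to 6 with cultures left out (2 without T33 or T43 and 3 without T13 or T32). The replicate block, with culture as a random term for genotype and a fixed term for IL-4, left *Trem2* called (-1.43, adjusted p = 0.0116), and of the members' calls it changed none. It ended the call of *Ptpn6* (adjusted p = 0.0819). The numbers of all genes called were 77 for genotype and 240 for IL-4 with the block, against 185 and 100 without it, and genotype calls ranged from 3 to 191 with cultures left out (3 without T33, 16 without T43, 49 without T15 and 99 without T32), were 16 with no expression limit, 26 with no variance trend and 575 with the 1-coefficient test. IL-4 calls were 61 with no expression limit, 50 with no variance trend, 151 with the 1-coefficient test and 46 to 143 with cultures left out (56 without T13, 51 without T33, 46 without T43 and 65 without T32). Interaction calls were 4 with no expression limit and 0 otherwise.

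The IL-4 difference of the *Trem2* to *Tyrobp* ratio was -0.20 without the pairing of libraries (no replicate block, exact permutation p = 0.455), and -0.22 to -0.18 with 5 cultures (exact permutation p = 0.0625, the smallest that 5 allow). Signs turned only for differences that had passed no test. The IL-4 difference of *Trem2* ran from -0.18 to 0.01 with cultures left out, and within KI it was -0.11 after quantile normalization, -0.02 after median-ratio scaling, and -0.15 to 0.24 with cultures left out. That of *Tyrobp* was -0.09 after quantile normalization, and within WT it ran from -0.12 to 0.03. For *Hcst* the untreated genotype difference ran from -0.60 to 0.06 and the IL-4 difference within KI from -0.05 to 0.60. Among the low receptors with cultures left out, genotype differences ran from -0.21 to 0.01 for *Trem1*, from -0.23 to 0.15 for *Treml2* (-0.28 with a pseudocount of 0.1) and from -0.37 to 0.29 for *Treml4*, and IL-4 differences from -0.33 to 0.19 for *Treml1* and from -0.11 to 0.35 for *Treml4*. *Tyrobp* relative to the microglial markers was 0.12 without T15. The cause of these changes was not tested, beyond the smaller number of cultures or the larger number of genes that a setting brings with it.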

Other observations

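*Trem2* made up most of the summed transcripts of itself and 18 listed receptors that use DAP12 or DAP10, a sum chosen after the values were seen. The list does not hold the other *Trem* genes. Added to the 18 other receptors of that list, it took 86.3%, 90.4% and 89.3% of the summed TPM in untreated T13, T33 and T43, and 65.5%, 79.3% and 78.5% in untreated T15, T22 and T32. After IL-4 its share was 76.6%, 80.5% and 77.4% in WT and 68.3%, 68.5% and 64.5% in KI. The share was lower after IL-4 in 5 cultures and higher in T15. The other receptors together had 185 to 211 TPM in WT and 165 to 201 TPM in KI before IL-4, and 364 to 383 TPM and 198 to 349 TPM after IL-4.

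The sum of *Trem2* and the listed receptors was 25.7% to 28% of *Tyrobp* TPM in untreated WT and 16.8% to 21.7% in untreated KI. After IL-4 it was 23.9% to 28.8% in WT and 15.7% to 19.5% in KI. These ranges did not overlap between the genotypes, but *Trem2* was most of each sum, so they largely repeat its ratio to *Tyrobp*. The listed receptors alone, in TPM, overlapped between the genotypes before IL-4 and not after it. How often such sums separate was not counted. Such a sum counts transcripts and says nothing of protein at the membrane, and the difference was not tested.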
